A study of Mus musculus with 6 samples.

Results

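Genes for histone modifiers and nucleosome remodelers were followed as loci in germinal center (GC) B cells. Some of them, such as Kmt2d and Crebbp, are recurrently mutated in B-cell lymphoma. The set held 10 of 21864 protein-coding genes: the H3K4 methyltransferases Kmt2d and Kmt2c, the acetyltransferases Crebbp and Ep300, the H3K27 methyltransferase Ezh2, the H3K36 methyltransferase Setd2, the erasers Hdac3 and Kdm1a, and the remodeler subunits Arid1a and Smarca4. They were taken by gene name. At each gene, peaks were taken as promoter-proximal when they lay within 5 kb of a GRCm38 (mm10) transcription start site (TSS) of a coding transcript, as gene body when they overlapped the gene farther out, and as flank when they lay outside the gene up to 50 kb from its TSS.

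The data were peak lists from 6 Mint-ChIP libraries, 3 for H3K4me1 and 3 for H3K4me3. Mint-ChIP ligates barcodes to chromatin cut by micrococcal nuclease, pools the samples for immunoprecipitation and copies the recovered DNA through RNA. Each library was prepared from 50000 cells sorted from spleens of wild-type mice, which had received sheep red blood cells 8 days earlier to induce GC reactions; sex, age, strain and whether the replicates were separate animals were not given in the labels. Both groups shared this genotype and treatment, so marks but no genotypes could be compared. The labels describe the sorted cells as centrocytes, the light zone fraction, while the study's methods call them GC B cells, and the labels' protocol refers to an H3K27ac antibody while the titles and antibody entries name H3K4me1 and H3K4me3, which were used here.

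Trimethylation of H3K4 marks active promoters, whereas monomethylation of H3K4 lies mainly at enhancers and on the shoulders of promoters. KMT2D and KMT2C place monomethylation at enhancers, and CREBBP and EP300 acetylate H3K27 at the same elements. EZH2 represses through H3K27 methylation, HDAC3 removes acetyl groups, KDM1A removes methyl groups from H3K4, and ARID1A and SMARCA4 belong to the SWI/SNF complex that moves nucleosomes. GC B cells depend on a balance between these enzymes to switch enhancers of fate genes off and on again, and the loci encoding them are described below as targets of H3K4 methylation, not as its sources.

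H3K4me1 lists held 24136, 13923 and 11922 peaks and H3K4me3 lists held 46707, 41936 and 42862. H3K4me1 was called as narrow and H3K4me3 as broad peaks, with different q-value floors, so any difference between marks is also one of calling mode. Under an assumed Poisson model, the fold enrichment and p-value of H3K4me1 peaks gave the number of fragments at each summit. The median was 6 in each library, with 4 to 19 at the 10 genes, so that single H3K4me1 peaks rest on few fragments. The GC B cell markers Bcl6, Fas, S1pr2, Mef2b, Ms4a1, Pax5 and Cd79a carried H3K4me3 within 5 kb of a TSS in 3 of 3 libraries, as did the centrocyte markers Cd83 and Cd86 and the centroblast marker Cxcr4, so these markers did not separate the GC fractions. None of 4 T cell markers (Cd3e, Cd4, Cd8a and Cd28) had one in any library. Itgam and Cd14, of 4 myeloid markers, had H3K4me3 peaks in 3 of 3, with widest peaks of 175 to 797 bp at Itgam and 1173 to 1963 bp at Cd14, while the myeloid marker Lyz2 and the erythroid marker Gata1 had none; the part of other cell types in the results was not tested.

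Promoter sequences are shown for 4 genes that span the range of H3K4me3 patterns described below. Kmt2d and Setd2 had wide peaks, Kmt2c the most enriched peaks and Kdm1a a single, otherwise isolated peak in each library. Each is the 250 bases before the RefSeq start (GRCm38.p6), written in the direction of the gene, and capitals mark matches on either strand to 6 motifs: the GC box GGGCGG, the CCAAT box CCAAT, ETS CCGGAAGT, NRF1 GCGCATGC, CRE TGACGTCA and YY1 ATGGCGGC. Overlapping GC boxes were counted separately.
Kmt2d promoter, chr15:98871206-98871455, minus strand: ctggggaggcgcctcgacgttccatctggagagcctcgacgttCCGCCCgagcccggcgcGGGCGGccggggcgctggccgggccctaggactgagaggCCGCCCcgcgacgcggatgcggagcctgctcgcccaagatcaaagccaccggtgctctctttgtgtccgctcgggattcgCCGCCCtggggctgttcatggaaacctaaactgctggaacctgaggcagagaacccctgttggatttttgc
Kmt2c promoter, chr5:25498784-25499033, minus strand: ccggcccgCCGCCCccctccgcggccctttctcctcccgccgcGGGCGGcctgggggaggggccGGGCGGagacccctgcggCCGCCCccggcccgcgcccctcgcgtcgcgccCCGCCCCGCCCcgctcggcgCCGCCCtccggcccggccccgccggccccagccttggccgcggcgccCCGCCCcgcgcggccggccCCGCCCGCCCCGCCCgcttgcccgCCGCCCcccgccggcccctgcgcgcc
Kdm1a promoter, chr4:136602724-136602973, minus strand: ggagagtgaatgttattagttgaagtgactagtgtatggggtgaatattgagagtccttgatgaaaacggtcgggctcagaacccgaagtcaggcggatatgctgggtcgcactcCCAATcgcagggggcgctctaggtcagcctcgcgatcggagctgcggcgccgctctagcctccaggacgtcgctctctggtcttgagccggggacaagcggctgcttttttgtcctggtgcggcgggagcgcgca
Setd2 promoter, chr9:110532347-110532596, plus strand: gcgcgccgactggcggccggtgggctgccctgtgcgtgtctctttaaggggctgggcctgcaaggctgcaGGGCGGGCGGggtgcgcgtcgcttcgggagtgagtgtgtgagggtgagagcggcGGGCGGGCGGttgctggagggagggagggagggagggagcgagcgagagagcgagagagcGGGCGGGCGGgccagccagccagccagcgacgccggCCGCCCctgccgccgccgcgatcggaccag
The RefSeq promoter table matched 9 of the 10 genes with 10 windows, since Arid1a has a pair of starts. Their GC content ran from 59.2% at Kdm1a to 91.6% at Kmt2c, above the median of 56% over 20138 coding promoters in 10 of 10 windows, and they held 18 to 48 CpG dinucleotides against a median of 10. The 250 bases of Kmt2c carried 48 CpG, more than 99.8% of promoters, and 12 GC boxes. GC boxes were present in 8 of 10 windows and in 44.1% of all promoters, and CCAAT in 2 of 10 (Ezh2 and Kdm1a) and in 35% of all. NRF1 matched at Smarca4 alone (3.05% of promoters), and ETS (3.97%), CRE (1.99%) and YY1 (1.26%) matched in none of the 10 windows.

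The second set of sequences comes from the 5 sites at which H3K4me1 summits of 3 of 3 libraries fell within 200 bp of each other, the most reproducible H3K4me1 positions at these genes. Each line gives the 200 bases around the median summit from the GRCm38.p6 genome in the direction of the gene, with the distance of the summits from the most upstream TSS, and none overlaps a coding-gene exon of its locus. Capitals mark matches on either strand to PU.1/SPIB GAGGAAGT, STAT TTCNNNGAA (N is any base), RUNX TGTGGTTT, octamer ATGCAAAT, MEF2 TATTTATA or the GC box GGGCGG.
Kmt2d +3455 to +3555 bp, chr15:98867574-98867773, minus strand: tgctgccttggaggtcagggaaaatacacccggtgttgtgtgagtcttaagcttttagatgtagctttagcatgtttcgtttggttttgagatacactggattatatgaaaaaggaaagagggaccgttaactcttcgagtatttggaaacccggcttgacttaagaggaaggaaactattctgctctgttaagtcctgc
Ep300 +2192 to +2254 bp, chr15:81587492-81587691, plus strand: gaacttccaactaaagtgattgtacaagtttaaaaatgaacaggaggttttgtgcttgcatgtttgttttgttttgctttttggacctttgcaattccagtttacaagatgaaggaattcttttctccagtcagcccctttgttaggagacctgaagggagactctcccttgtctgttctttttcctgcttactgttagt
Arid1a +5476 to +5503 bp, chr4:133751168-133751367, minus strand: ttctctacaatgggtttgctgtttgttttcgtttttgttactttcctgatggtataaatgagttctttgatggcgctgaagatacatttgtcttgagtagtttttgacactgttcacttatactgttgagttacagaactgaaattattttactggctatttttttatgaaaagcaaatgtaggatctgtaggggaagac
Setd2 +2599 to +2679 bp, chr9:110535127-110535326, plus strand: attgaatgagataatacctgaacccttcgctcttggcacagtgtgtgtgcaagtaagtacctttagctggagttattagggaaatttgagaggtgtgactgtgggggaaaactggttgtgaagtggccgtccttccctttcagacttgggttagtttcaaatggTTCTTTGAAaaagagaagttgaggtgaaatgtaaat
Setd2 +3696 to +3824 bp, chr9:110536230-110536429, plus strand: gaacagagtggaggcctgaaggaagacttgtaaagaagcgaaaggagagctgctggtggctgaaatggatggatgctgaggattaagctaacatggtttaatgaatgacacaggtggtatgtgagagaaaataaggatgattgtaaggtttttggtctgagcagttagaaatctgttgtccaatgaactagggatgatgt
In these 5 windows GC content was 34% to 42.5% with 0 to 5 CpG, against medians of 46% and 2 over 8430 windows of the same length at H3K4me1 regions found in at least 2 libraries. A STAT match in the first Setd2 window was the only match, and that motif was present in 5.41% of the 8430 windows. PU.1/SPIB letters occurred in 3.51%, RUNX in 2.59%, octamer in 2.42%, MEF2 in 0.854% and the GC box in 2.98% of them.

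H3K4me3 was present at the promoter of all 10 genes in 3 of 3 libraries, a pattern found at 56.2% of all protein-coding genes. H3K4me1 was present within 5 kb of the TSS in 3 of 3 libraries at 4 of 10 genes (Kmt2d, Ep300, Arid1a and Setd2), compared with 6.17% of all genes and with 11% of the 12286 genes that had H3K4me3 in 3 of 3. Crebbp and Kdm1a had no promoter-proximal H3K4me1 peak in any library, as did 38.9% of those 12286 genes. The other 4 genes had one in 1 or 2 libraries. The counts depend on the lists. H3K4me3 in 3 of 3 was kept at 7 of 10 genes at a −log10 q-value of at least 5 and at 3 with the 10000 best peaks of each library. The second cut takes more from the H3K4me3 lists, of 41936 to 46707 peaks, than from the H3K4me1 lists, of 11922 to 24136. The count for H3K4me1 was 2 at that q-value and 4 with the 10000 best peaks. It was 0 with a promoter distance of 1 kb, 3 with the most upstream TSS alone and 7 when 2 of 3 libraries sufficed. Shares over all genes are not given for these settings. No peak of H3K4me1 covered a TSS of the 10 genes in any library, compared with 2.36% of all genes that had a covered TSS in at least 1.

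**Figure D1:**
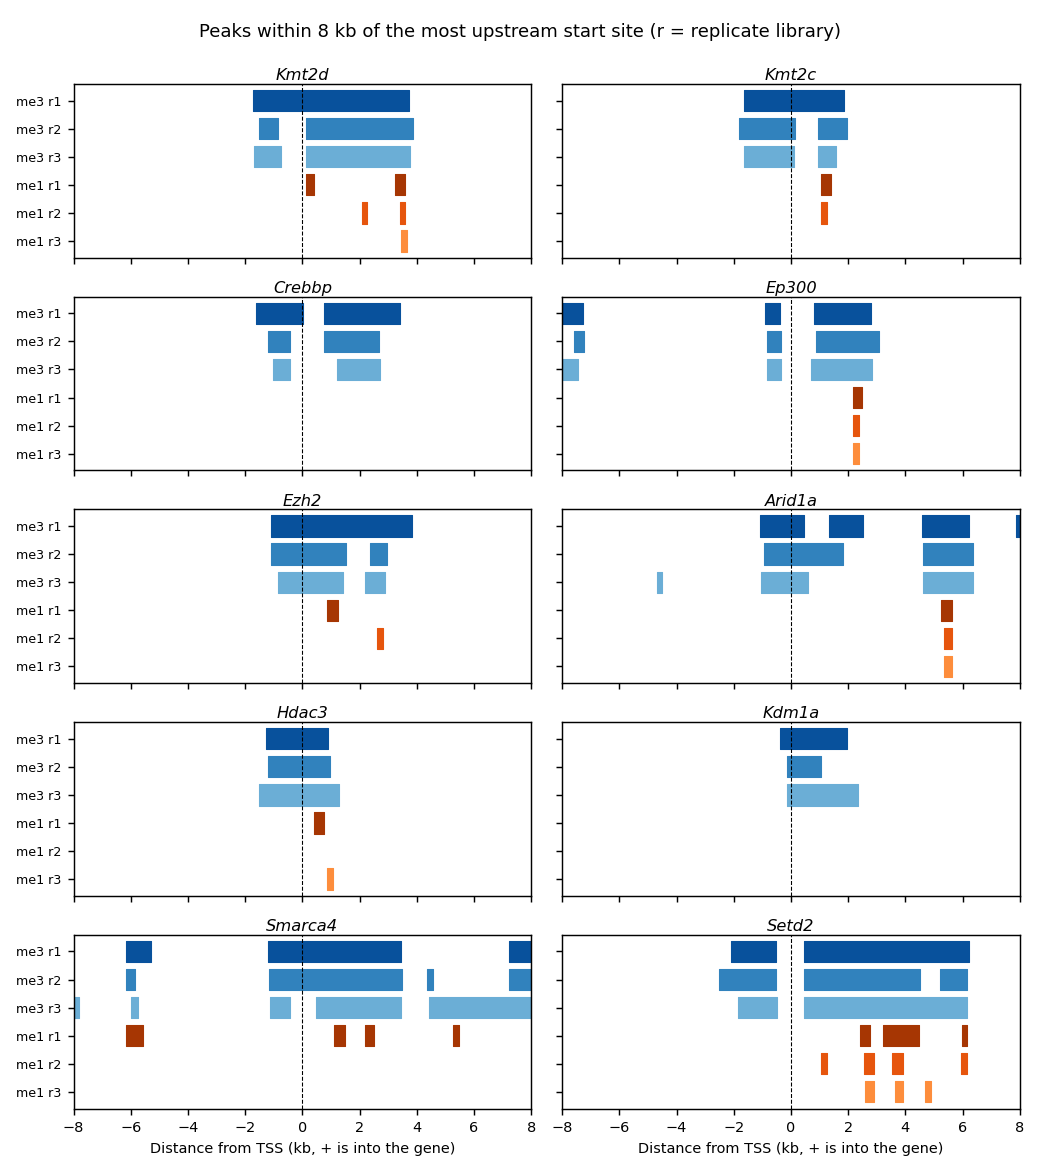
Peaks of each library within 8 kb of the most upstream TSS of the 10 genes; the x axis is the distance from the TSS in kb, the dashed line the TSS, and the rows the H3K4me3 (blue) and H3K4me1 (orange) replicates. H3K4me3 peaks lie on both sides of the TSS at every gene, and the promoter-proximal H3K4me1 peaks lie on the gene side, as at Ep300 and Setd2 in all 3 libraries; those of Arid1a, 5242 to 5643 bp from this TSS, are proximal through its inner TSS.

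The length of promoter covered by peaks was larger for H3K4me3 than for H3K4me1 at 10 of 10 genes, with no overlap between the groups. So it was at 12193 of the 12286 genes with promoter-proximal H3K4me3 in 3 of 3 libraries (55.8% of all genes). With broad H3K4me3 and narrow H3K4me1 calls, this pattern does not set the 10 genes apart. The exact two-sided permutation test gave p = 0.1 at each gene (n = 3 per mark), the smallest p-value that 20 assignments of the 6 libraries can give, so no gene could pass 0.05. P-values here measure the spread between libraries, which may be technical. Coverage by H3K4me3 had a median over the 10 genes of 4465, 3107.5 and 2870.5 bp in replicates 1, 2 and 3, and the median over all genes covered in the same library was 2135, 1907.5 and 1914 bp. Genes with distant TSSs have a longer window, as Ezh2 with 20002 bp and Arid1a with 13159 bp, and coverage was not corrected for this. The widest promoter-proximal H3K4me3 peak had a median of 3082.5, 2421.5 and 2362 bp against 1949, 1724 and 1744 bp.

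**Figure D2:**
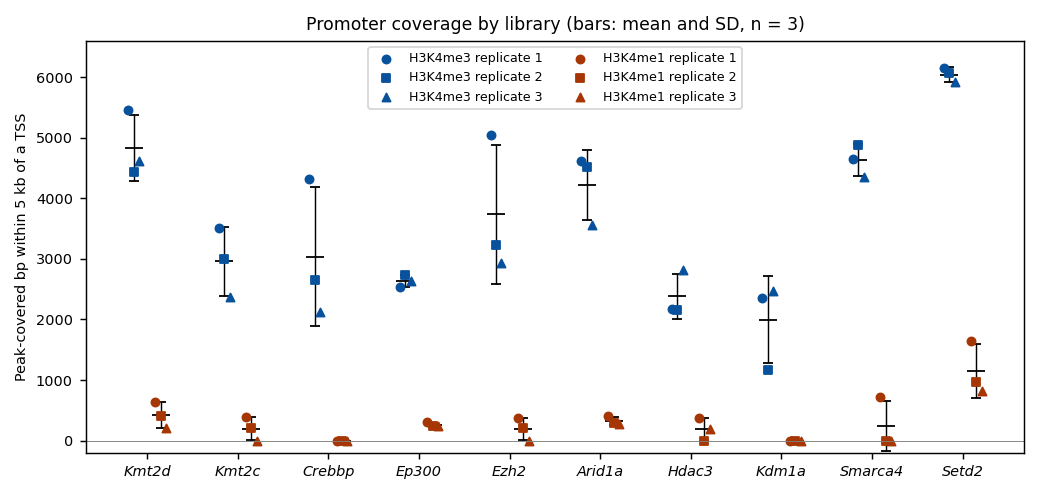
Base pairs covered by peaks within 5 kb of a TSS (y axis) for each gene (x axis); points are libraries (blue, H3K4me3; orange, H3K4me1; shape, replicate) and bars the mean ± SD, n = 3. The H3K4me3 points lie above the H3K4me1 points at every gene, with Setd2 highest at 5912 to 6151 bp.

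Kmt2d, which encodes the main enhancer monomethyltransferase and a frequent target of truncating mutations in lymphoma, carried one of the widest H3K4me3 domains of the set (chr15, minus strand, gene span 98831669 to 98871204). H3K4me3 covered 5451, 4433 and 4607 bp of its promoter in replicates 1, 2 and 3 and H3K4me1 covered 641, 407 and 212 bp, a mean of 4830 ± 545 against 420 ± 215 bp (SD, n = 3). The lowest H3K4me3 library was well above the highest H3K4me1 library. Its widest H3K4me3 peak was 5451, 3737 and 3637 bp, at percentiles 95.6, 92.1 and 91.1 of all genes with a promoter peak in the same library, whereas its fold enrichment was near the middle, at percentiles 53, 59.8 and 63.4. In replicate 1 a single peak ran across the TSS, and in replicates 2 and 3 the domain was broken, with peaks ending 838 and 739 bp upstream and starting 114 and 112 bp downstream of the TSS. The H3K4me1 site in its intron had summits 3455, 3530 and 3555 bp from the TSS with 9, 8 and 6 fragments, which is close to the downstream end of the H3K4me3 domain at 3715 to 3850 bp. Start sites of noncoding genes (Gm49437 and 5730414N17Rik) lie 1409 and 1440 bp from that of Kmt2d, so the peaks upstream cannot be assigned to one gene.

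Kmt2c, the paralog of Kmt2d, had a shorter but more enriched H3K4me3 pattern (chr5, minus strand, 25271798 to 25498783). H3K4me3 covered 3506, 2993 and 2375 bp (2958 ± 566, SD, n = 3) and H3K4me1 382, 205 and 0 bp. Its highest promoter fold enrichment was 8.94, 10.3 and 11.7, at percentiles 86.6, 97.8 and 99.4 within the libraries, while the width of its widest peak was at percentiles 86.3, 60.2 and 50.3. In replicates 2 and 3 the most enriched peak was not the one on the TSS but a separate peak 930 to 1944 and 937 to 1561 bp into the gene. The H3K4me1 peaks of replicates 1 and 2, with 8 and 6 fragments, had summits 1232 and 1191 bp from the TSS, inside that interval, and replicate 3 had none. The TSS itself was covered by H3K4me3 in 3 of 3 libraries, and the noncoding gene 4831440E17Rik starts 322 bp away.

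Crebbp and Ep300 encode paralogous acetyltransferases, of which CREBBP is the one more often mutated in lymphoma. Crebbp (chr16, minus strand, 4081328 to 4213997) had the lowest-ranked H3K4me3 enrichment of the 10 genes in 3 of 3 libraries, with a highest promoter fold of 4.48, 4.65 and 4.23 at percentiles 15.2, 20.1 and 14.6. H3K4me3 still covered 4321, 2657 and 2126 bp of its promoter (3035 ± 1145, SD, n = 3), and H3K4me1 covered 0 bp in each library. At a −log10 q-value of at least 5 no Crebbp promoter peak of either mark was left, so the presence of H3K4me3 there depends on the peak threshold. The H3K4me3 signal was split into 2 peaks in each library, and the upstream TSS was covered in replicate 1 but lay in a gap in replicates 2 and 3, with peaks 447 and 420 bp upstream and 764 and 1201 bp downstream. The inner TSS lay in the gap in all 3 libraries.

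Ep300 (chr15, plus strand, 81585351 to 81652077) had a similar layout with little spread. H3K4me3 covered 2535, 2736 and 2629 bp (2633 ± 101, SD, n = 3) and H3K4me1 305, 236 and 238 bp (260 ± 39.3, SD, n = 3). The annotated TSS was covered in none of the 3 libraries, with the upstream peak ending 366, 337 and 348 bp before it and the downstream peak starting 807, 872 and 715 bp after it. The RefSeq start of Ep300 is 817 bp farther into the gene and was covered in 2 libraries, so the uncovered TSS depends on the annotation. The intronic H3K4me1 summits were 2254, 2192 and 2195 bp from the TSS with 7, 6 and 5 fragments, within the downstream H3K4me3 peak in each library. Highest promoter H3K4me3 fold was 7.77, 5.09 and 6.50 at Ep300, above the 4.48, 4.65 and 4.23 of Crebbp in each library.

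Setd2, which encodes the enzyme for H3K36 trimethylation of transcribed genes, had both the longest H3K4me3 and the longest H3K4me1 coverage of the 10 genes (chr9, plus strand, 110532597 to 110618633). H3K4me3 covered 6151, 6061 and 5912 bp (6041 ± 121, SD, n = 3) and H3K4me1 1652, 962 and 825 bp (1146 ± 443, SD, n = 3). Its widest H3K4me3 peak was 5798, 4046 and 5717 bp, at percentiles 96.3, 93.6 and 97.6, with fold percentiles of 62.2, 78.6 and 56.8. The TSS was covered in none of the libraries, since upstream peaks ended 519, 506 and 486 bp before it and downstream peaks began 444, 450 and 445 bp after it. The 3 libraries placed these boundaries close together, and RefSeq gives the same TSS. In the intron, the H3K4me1 peak at 3824, 3696 and 3733 bp had fold enrichments of 14.0, 8.25 and 8.77 and 19, 10 and 11 fragments, and its fold was at percentiles 100, 95.1 and 97.3 of promoter-proximal H3K4me1 in the libraries. A second H3K4me1 site had summits 2599, 2630 and 2679 bp from the TSS with 10, 6 and 9 fragments.

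Ezh2, the catalytic subunit of PRC2 and a gene with activating mutations in GC-derived lymphoma, had its upstream TSS covered by H3K4me3 in 3 of 3 libraries (chr6, minus strand, 47530139 to 47595341). H3K4me3 covered 5048, 3222 and 2929 bp (3733 ± 1148, SD, n = 3), and H3K4me1 371, 204 and 0 bp. Replicate 1 had 1 peak of 4921 bp across the region that replicates 2 and 3 divided into a peak on the TSS of 2620 and 2252 bp and a small one from 2349 to 2950 and 2199 to 2875 bp. Its H3K4me1 peaks were at different positions, with summits 1179 bp from the TSS in replicate 1 and 2691 bp in replicate 2, so no promoter site recurred. Ezh2 has a second annotated TSS 47577660 inside the gene that no H3K4me3 peak covered.

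Hdac3 and Kdm1a, the erasers, had the shortest mean coverage by H3K4me3, though not the shortest in replicate 3, and each library had a single promoter peak across their TSSs. At Hdac3 (chr18, minus strand, 37935844 to 37955016), the catalytic subunit of the NCOR corepressor complex, H3K4me3 covered 2179, 2153 and 2812 bp (2381 ± 373, SD, n = 3) and H3K4me1 376, 0 and 189 bp. The start of the coding gene Rell2 lies 123 bp away on the same H3K4me3 peak, so the peak cannot be assigned to Hdac3 alone. At Kdm1a (chr4, minus strand, 136550540 to 136602723), H3K4me3 covered 2347, 1166 and 2472 bp (1995 ± 721, SD, n = 3), and H3K4me1 0 bp in each library. The shortest Kdm1a peak, in replicate 2, was the most enriched, with fold 8.07 against 4.81 and 4.28, at percentiles 87, 19.6 and 15.2. At a −log10 q-value of at least 5, peaks were left at Kdm1a in that replicate alone and the mean difference between marks was 389 bp in place of 1995 bp.

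Arid1a and Smarca4, the SWI/SNF subunits, had long H3K4me3 coverage that continued into their introns. At Arid1a (chr4, minus strand, 133679008 to 133756769), H3K4me3 covered 4609, 4509 and 3562 bp (4227 ± 578, SD, n = 3) and H3K4me1 402, 296 and 278 bp (325 ± 67.0, SD, n = 3). A second H3K4me3 peak began 4574, 4631 and 4631 bp from the upstream TSS, and within it the H3K4me1 summits of the 3 libraries fell at 5476, 5501 and 5503 bp, a range of 27 bp, with 10, 10 and 8 fragments. This was the tightest of the 5 recurrent H3K4me1 sites. The inner Arid1a TSS 133753611 lay between the H3K4me3 peaks and was covered in no library.

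At Smarca4 (chr9, plus strand, 21616169 to 21704230), the ATPase of the complex, H3K4me3 covered 4651, 4876 and 4357 bp (4628 ± 260, SD, n = 3) of the promoter. H3K4me1 covered 716, 0 and 0 bp, so both of its promoter H3K4me1 peaks came from replicate 1, the list with the most peaks. Replicate 3 had a gap at the TSS, 426 bp upstream and 485 bp downstream, which replicates 1 and 2 did not have. Farther in, an H3K4me3 region reached from 4348 to 12984 bp into the gene over the 3 libraries, with a single peak of 8044 bp in replicate 3 at width percentile 99.3, and H3K4me1 was found in that region in replicates 1 and 3.

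**Figure D3:**
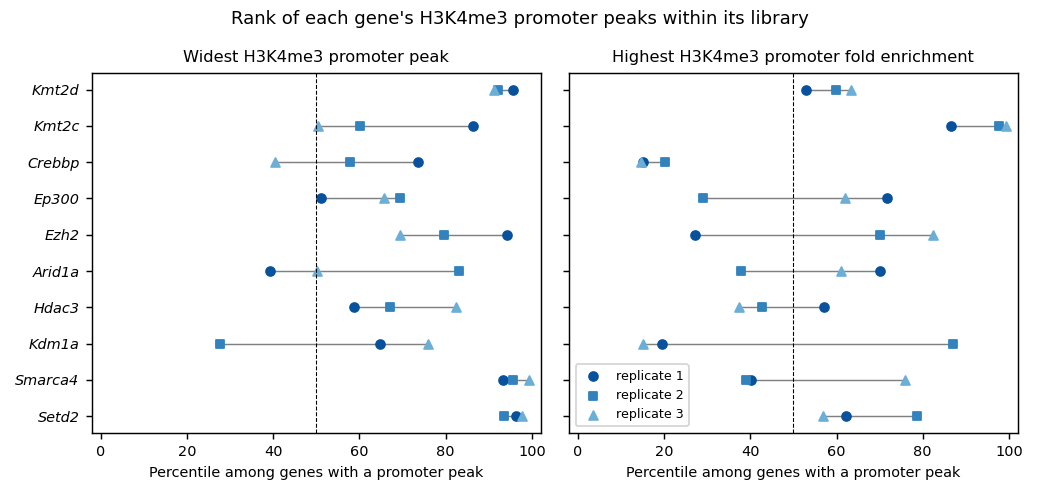
Percentile of each gene's widest promoter H3K4me3 peak (left) and highest promoter fold enrichment (right) among all genes with such a peak in the same library (x axis); points are libraries, lines their range and the dashed line the median gene. Setd2, Smarca4 and Kmt2d stay at or above percentile 91.1 for width in 3 of 3 libraries, whereas for fold Kmt2c lies at 86.6 to 99.4 and Crebbp at 14.6 to 20.1. The widest Smarca4 peak of replicate 3 starts 4413 bp from the upstream TSS.

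Coverage of the TSS itself divided the genes. At least 1 coding TSS was covered by H3K4me3 in 3 of 3 libraries at 5 of 10 genes (Kmt2c, Ezh2, Arid1a, Hdac3 and Kdm1a). The same held for 8405 of the 12286 genes with promoter-proximal H3K4me3 in 3 of 3, which is 38.4% of all genes. For the 10 genes, the count rose to 8 when peaks within 1 kb were merged and was 1 with the 10000 best peaks. The shares over all genes at these settings are not given. At Ep300 and Setd2 the TSS was covered in none, as at 13.7% of the 12286 genes. H3K4me3 was called as 2 or more promoter-proximal peaks in each library at 5 of 10 genes (Crebbp, Ep300, Ezh2, Arid1a and Setd2), compared with 24.8% of the 12286; one of the Ezh2 peaks of replicate 1 lies near its inner TSS.

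Promoter-proximal H3K4me1 peaks of the set lay downstream of the nearest TSS in 27 of 27 cases, with centers 229.5 to 4786 bp away, and 27 of 27 overlapped an H3K4me3 peak of the same replicate number. Over all protein-coding genes, 57.8% of 18185 such peaks lay downstream and 84.5% overlapped H3K4me3. The 27 peaks come from 8 genes and many, though not all, recur at the same sites, so they are not independent. H3K4me3 peaks of the 10 genes were downstream in 60%, close to 58.4% over all genes.

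Beyond 5 kb, H3K4me3 was present in the body or flank in 3 of 3 libraries at 8 of 10 genes (67.1% of all genes, and 70.5% of the 10343 genes at least as long as Hdac3, the shortest of the set at 19.2 kb). H3K4me1 was present there in 3 of 3 libraries at 4 of 10 (Ezh2, Arid1a, Hdac3 and Smarca4), compared with 26.5% of all genes and 28.3% of the longer ones, and the count was 7 without H3K4me1 replicate 3. It fell to 0 at a −log10 q-value of at least 5 and to 2 with the 10000 best peaks. The count was 8 with a promoter distance of 1 kb and 9 when 2 of 3 libraries sufficed. Shares over all genes are not given for these settings or without replicate 3, so these counts have no background here. Merging peaks of all libraries gave 74 outlying regions. Of these, 24 held H3K4me3 in 3 of 3 libraries, 11 held H3K4me1 in at least 2, and 10 held both. H3K4me1 without H3K4me3 was seen in 17 of the 38 regions that held H3K4me1 in any library. Only 1 of these 17, at Ezh2 8335 to 8561 bp from the upstream TSS, had H3K4me1 in more than 1 library. The share of such regions over all genes is not given.

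Several of these regions lay at neighboring genes. All 4 regions with H3K4me3 in 3 of 3 libraries around Kmt2d lay within 5 kb of start sites of other coding genes (Lmbr1l, Dhh, Rhebl1 and Prkag1), as did 2 of 3 around Hdac3 (Fchsd1 and Diaph1) and 1 of 4 around Smarca4 (Timm29). The other 17 of the 24 regions lay more than 5 kb from any coding TSS. Of the 10 regions with both marks, 7 were of this kind, and they were found at Ep300, Ezh2, Arid1a, Hdac3 and Smarca4. A position near a gene does not show that a region acts on it.

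The Ep300 region upstream held 4 H3K4me3 regions in 3 of 3 libraries, all far from coding start sites, at −51511 to −48262, −40469 to −38219, −16785 to −14457 and −8846 to −7251 bp. H3K4me1 was found in replicates 1 and 2 at the region from −40469 bp, with summits at −38834 and −38740 bp and 9 and 8 fragments, and at that from −16785 bp, with summits at −16479 and −16431 bp and 6 and 7 fragments. Crebbp had no outlying region with H3K4me3 in 3 of 3 libraries and no H3K4me1 region in more than 1, so the paralogs differed in this list of regions, though the difference was not tested.

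At Arid1a an intronic region 47215 to 50735 bp from the TSS (chr4:133706034-133709554) carried both marks in 3 of 3 libraries, with H3K4me3 fold enrichments of 5.69 to 7.92 and H3K4me1 of 4.21 to 6.58. Smarca4 had a region of this kind upstream, at −50026 to −47946 bp (chr9:21566143-21568223), with H3K4me3 folds of 4.47 to 6.55 and H3K4me1 of 5.12 to 7.31; the nearest coding TSS, of Carm1, is 19220 bp away. Within it, H3K4me1 summits of replicates 1 and 3 met at −49441 to −49401 and −48430 to −48421 bp. The only H3K4me1 peak of replicate 2 there, at −50026 to −49830 bp, overlapped none of theirs, so no H3K4me1 site was shared by 3 libraries. No other outlying region had H3K4me1 in 3 of 3 libraries, since at Ezh2 and Hdac3 the libraries had it in different regions. At Ezh2 an intronic region 32788 to 34738 bp from the upstream TSS had H3K4me3 in 3 libraries and H3K4me1 in 2. At Hdac3 the region 27871 to 30857 bp from the TSS, beyond the gene's end, had H3K4me3 in 3 and H3K4me1 in 2.

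**Figure D4:**
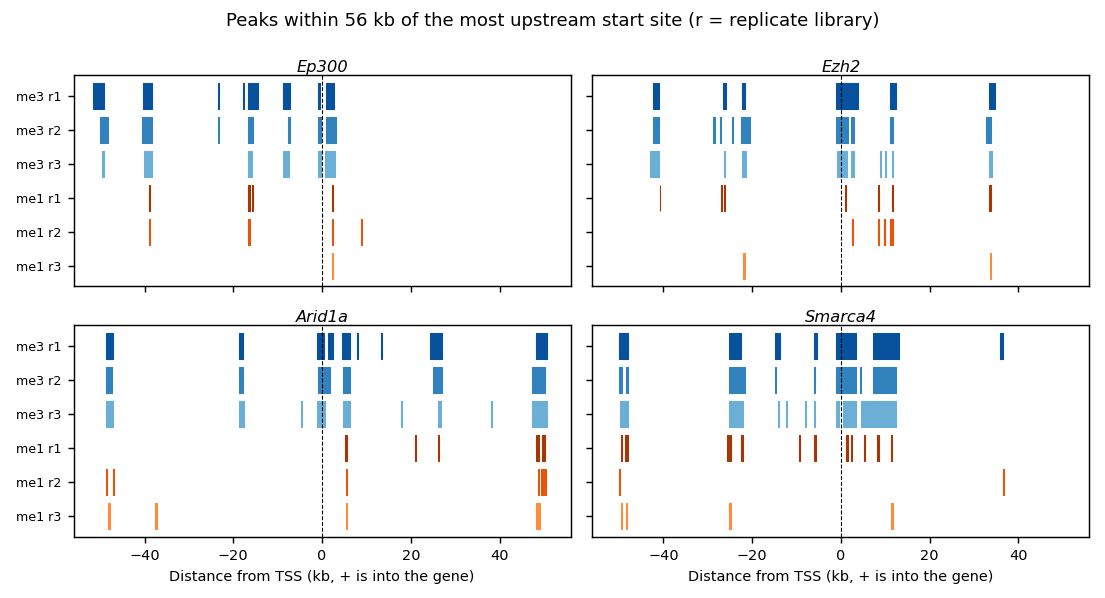
Peaks of each library within 56 kb of the most upstream TSS of 4 genes; the x axis is the distance in kb, the dashed line the TSS, and the rows the replicates of H3K4me3 (blue) and H3K4me1 (orange). H3K4me3 regions recur in 3 libraries on both sides of Arid1a, and both marks meet at 47215 to 50735 bp into Arid1a and at −50026 to −47946 bp from Smarca4.

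Kdm1a stood at the other end, with 0 outlying peaks of either mark in any of the 6 libraries although its gene body spans 52.2 kb. Setd2, in spite of its wide promoter domain, had 6 outlying regions and none with H3K4me3 in 3 of 3 libraries. Kmt2c, whose gene spans 227 kb, had 9 regions, of which the only one with H3K4me3 in 3 of 3 lay at −32289 to −29856 bp at the noncoding gene 1700096K18Rik. Its long body held H3K4me3 peaks in at most 2 libraries at any position.

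Partners of these enzymes gave a setting for the counts. Among 55 genes for subunits and relatives of COMPASS, acetyltransferase, PRC2, H3K36 methyltransferase, corepressor and SWI/SNF complexes, 55 had promoter-proximal H3K4me3 in 3 of 3 libraries, 11 had H3K4me1 in 3 of 3 and 12 had H3K4me1 in none. A TSS was covered by H3K4me3 in 3 of 3 libraries at 31 and in none at 10 of the 55. H3K4me1 in 3 of 3 was seen at 2 of 12 COMPASS, 1 of 7 acetyltransferase, 2 of 8 PRC2, 2 of 4 H3K36 methyltransferase, 2 of 10 eraser and corepressor, and 2 of 14 SWI/SNF genes. The median of the mean widest H3K4me3 peak was 2186 bp over the partners and 2396 bp over the 10 genes. The widest were at Arid1b, the paralog of Arid1a, with 13396, 9980 and 13469 bp (12282 ± 1994, SD, n = 3), at Phf19, a PRC2 accessory subunit, with 10357, 9664 and 7954 bp (9325 ± 1237, SD, n = 3), and at Tbl1xr1, an NCOR complex subunit, with 7661, 3338 and 5418 bp (5472 ± 2162, SD, n = 3). None of the 10 genes reached the mean of Arid1b or Phf19. The largest was Smarca4 with 5782 ± 1959 bp (SD, n = 3) through its 8044 bp peak in replicate 3. That peak lay 4413 to 12456 bp from the upstream TSS, mostly beyond the 5 kb window. In replicates 1 and 2 the peaks there, of 5755 and 5227 bp, were classed as gene body. The mean of Smarca4 thus mixes different peaks, and Setd2 followed with 5187 ± 989 bp (SD, n = 3).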

How the data were processed

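Mint-ChIP peak lists of H3K4me1 and H3K4me3 (3 libraries each) were used as deposited. Per the labels, reads were processed with BWA, Picard, HOMER and Genrich on mm10, named in the submitters' processing notes without versions; the lists have the narrow (H3K4me1) and broad (H3K4me3) layout with 1 list per library, and the control is not given in the sources used here. The authors deposited for each peak a fold enrichment, a linear ratio of pileup to background, with a −log10 p-value and a −log10 q-value, which were used as given, and a score column that was not used. The lowest −log10 q-value was 1.31 to 1.32 for H3K4me1 and 1.02 to 1.14 for H3K4me3. Read totals were not used here, so depth was read from H3K4me1 summits. This assumed a Poisson p-value and a fold with a constant added to fragments and background, a form not given in the sources used here. Fold and p-value then gave a whole number of fragments (tolerance 0.005) for at least 99.99% of peaks.

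Genes and 41451 TSS positions came from the GENCODE basic annotation of GRCm38, with 0 peaks past a chromosome end. Covered length and peak zones were computed for each of 21864 genes (Python 3.11.15, numpy 2.4.6, scipy 1.17.1). Exact permutation tests over libraries are reported for the 10 genes. Zone assignment was tested on simulated data, with 200 of 200 planted peaks recovered. Sequences were read with pysam 0.24.0 and samtools 1.23.1. All 10 genes are named, and of the 55 partner genes those lacking promoter H3K4me3 (there were none) and the 3 with the widest peaks. The genes and lists were chosen with earlier results of these data known. Alternatives were a promoter distance of 1 kb, a −log10 q-value of at least 5, the 10000 best peaks, peaks within 1 kb merged, the most upstream TSS, presence in 2 of 3 libraries, flank peaks away from every coding TSS, each library left out and a replicate block. RefSeq starts, split promoters and the gene length limit were added after the data were seen. Some of the marker genes examined are not reported here.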

Additional observations from a re-analysis of the deposited data

How the results depend on the processing

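Of 101 recomputed values for the comparisons, 87 kept their direction and stayed within the limits set for a change for counts and widths, and 14 moved. Shares over all genes are not given for the changed settings, so the counts below have no background. The number of genes with promoter-proximal H3K4me1 in 3 of 3 libraries was 4 and became 0 with a promoter distance of 1 kb, 2 at a −log10 q-value of at least 5 and 7 when 2 of 3 libraries sufficed. The number with H3K4me1 in the body or flank was 4 and became 8 with 1 kb, 0 at the stricter q-value, 2 with the 10000 best peaks, 9 with 2 of 3 libraries, and 4 to 7 when each library was left out in turn, the highest without H3K4me1 replicate 3. At the stricter q-value, promoter H3K4me3 in 3 of 3 and coverage without overlap between marks each held at 7 genes. With the 10000 best peaks, a cut that takes more from the longer H3K4me3 lists, promoter H3K4me3 in 3 of 3 fell from 10 to 3 genes. A covered TSS then fell from 5 to 1, coverage without overlap between marks from 10 to 3, and the median widest peak to 1254 bp. Merging peaks within 1 kb raised the covered TSS count to 8 and the widest peak to 3162 bp. At Crebbp the difference in coverage became 0 bp at the stricter q-value and with the 10000 best peaks, since no peak was left. The difference at Kdm1a fell from 1995 to 389 bp under both settings, and that at Ep300 from 2374 to 1536 and 1276 bp. With the 10000 best peaks it also fell to 1556 bp at Ezh2, 1870 bp at Arid1a, 663 bp at Hdac3 and 871 bp at Smarca4. Same-numbered libraries did not deviate together (correlations of 0.002, 0.004 and 0.008 over genes), so the numbers were not taken to pair them; with the replicate block, H3K4me3 coverage was higher in 10 of 10 genes and the exact sign-flip p was 0.25, the smallest possible. H3K4me1 peaks rest on a median of 6 fragments at the summit, which limits calls of absence.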
